A study of Saccharomyces cerevisiae with 8 samples.

Results

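The 10 genes that encode the core histones, the H2A variant H2A.Z and the linker histone H1 of budding yeast were followed through 8 libraries of capped RNA 5′ ends. They were taken by name: HTA1 and HTA2 (H2A), HTB1 and HTB2 (H2B), HHT1 and HHT2 (H3), HHF1 and HHF2 (H4), HTZ1 (H2A.Z) and HHO1 (H1), 10 of the 6002 protein-coding genes annotated on the 16 nuclear chromosomes. A gene was given a start peak where a peak on its own strand overlapped a window that began 300 bp before its annotated 5′ end and closed 100 bp after it. In this annotation the 5′ end is the first base of the coding sequence. Of the 10 genes, 9 were so detected in all 8 libraries and HTZ1 in 6.

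The assay was CAGE (cap analysis of gene expression), which captures capped 5′ ends and so marks where transcripts begin. BY4741, a common laboratory background of mating type a, was the parent of every strain, and each carried synHPRT1, a synthetic version of the human HPRT1 locus, or synHPRT1R, the same bases in reverse order. Each sequence sat on a yeast artificial chromosome (YAC) or was integrated on chromosome XI, which gave 4 groups of 2 libraries: synHPRT1 YAC, synHPRT1 integrated, synHPRT1R YAC and synHPRT1R integrated. All groups were grown at 30 °C for 6 h from an OD of 0.1 to about 0.6, the YAC strains in SC-Leu and the integrated strains in YPD, so context and medium cannot be told apart. The labels do not say that the 2 libraries of a group were separate cultures or clones, so the p-values reflect the spread between libraries, possibly a technical one.

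Histones wrap nuclear DNA into nucleosomes, each built on pairs of H2A, H2B, H3 and H4. Yeast carries a pair of genes for each core histone, arranged as divergent couples in which an H2A gene faces an H2B gene, or an H3 gene an H4 gene, across a shared upstream region. Their transcription is known to peak in S phase. The activator Spt10 binds paired elements in these shared regions, the G1/S factors SBF (Swi4 with Swi6) and MBF (Mbp1 with Swi6) act there too, and the HIR complex represses 3 of the 4 couples outside S phase. HTZ1, whose product replaces H2A near promoters, and HHO1 stand alone.

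The shared regions carry the short sequence elements around which the divergent peaks were placed, so the stretch of each that holds matches to activator sites is shown, read on the plus strand of RefSeq's assembly of build sacCer3. Capitals mark matches on either strand to the Spt10 word (GTTCC or ATTCC, then NNNNNN and TTCNC), the SBF words CGCGAAA and CACGAAA, and the MBF word ACGCGT.
HTB1 and HTA1, chrIV:914952-915167: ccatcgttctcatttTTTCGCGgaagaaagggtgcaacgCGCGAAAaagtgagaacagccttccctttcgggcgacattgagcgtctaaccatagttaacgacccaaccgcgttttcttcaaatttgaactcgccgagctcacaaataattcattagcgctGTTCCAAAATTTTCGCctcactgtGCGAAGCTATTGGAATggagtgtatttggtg
HTA2 and HTB2, chrII:236093-236149: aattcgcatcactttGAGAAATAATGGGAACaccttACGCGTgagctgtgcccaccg
HHF1 and HHT1, chrII:255929-255974: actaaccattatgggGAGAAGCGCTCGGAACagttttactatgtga
HHT2 and HHF2, chrXIV:576331-576487: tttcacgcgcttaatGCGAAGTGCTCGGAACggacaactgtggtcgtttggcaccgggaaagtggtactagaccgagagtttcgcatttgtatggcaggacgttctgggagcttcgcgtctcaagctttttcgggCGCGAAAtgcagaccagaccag
All 4 couples held an Spt10 match within 600 bp upstream of both genes, so 8 of the 10 genes had one, against 74 of 5999 genes (1.23%). The partners of a couple share their matches, and the word itself is known from these promoters, so this count describes the sequences and is not an independent observation. The region between HTB1 and HTA1 held 2 Spt10 matches, which 4 genes of the genome had, HTB1 and HTA1 among them.

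SBF matches lay upstream of 6 of the 10 genes, at the HTB1-HTA1 and HHT2-HHF2 couples, HTZ1 and HHO1, against 14.2% of all genes. The MBF match of the HTA2-HTB2 region was counted for both genes, 2 of 10 against 6.33%. HTZ1 and HHO1, which had no Spt10 match in this window, are shown on their own (minus) strand with the SBF match in capitals.
HTZ1, chrXV:304149-304195: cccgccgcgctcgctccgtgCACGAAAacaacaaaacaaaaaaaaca
HHO1, chrXVI:309759-309805: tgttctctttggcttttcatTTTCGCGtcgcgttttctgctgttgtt
A Reb1 match (TTACCCG), the word of a factor that keeps promoters free of nucleosomes, was found upstream of HTZ1 alone among the 10, against 11.0% of all genes. A match is a word in the sequence and not a bound site.

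The libraries held 2995 to 3367 peaks on native chromosomes, and 2393 to 2665 genes (39.9% to 44.4%) had a start peak in a library. Of 6 genes that mark mating type a, 4 (MFA1, MFA2, STE6 and AGA2) were detected in every library, STE2 in 2 and BAR1 in 0. Of 4 alpha-specific genes, 3 (MF(ALPHA)2, STE3 and SAG1) were detected in 0 libraries and MF(ALPHA)1 in 1. With the strands exchanged, 9 of the 10 histone genes had a peak in no library and HHT2 had one in 5, a plus-strand peak described below under its partner HHF2.

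All 8 genes of the divergent couples and HHO1 had a start peak in 8 of 8 libraries, as did 1239 of all 6002 genes (20.6%). Both partners were detected in all 8 libraries for 4 of 4 couples, and the same held for 74 of 1269 (5.83%) head-to-head gene pairs with 5′ ends at most 1000 bp apart. These counts rest on any overlap of peak and window: with the summit required inside the window, 5 of the 10 genes and 0 of 4 couples were detected in all 8 libraries, and 777 of all genes. None of the 10 genes had another peak on its own strand within the gene. Peaks on the opposite strand overlapped HTZ1 in 3 libraries and none of the other 9 genes in any library.

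Levels were read as the number of tags at the peak summit divided by the genome-wide background of the same list, one list per strand and library. A CAGE tag marks an RNA's 5′ end, so levels were not divided by gene length. Library depth is unknown for want of read totals, and tags amplified through 20 PCR cycles without molecular identifiers in the protocol are not independent molecules. Partners and paralogs all lie on opposite strands and therefore in different lists, so their levels are set side by side without a test.

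HTB1, which encodes one of the H2B copies, had the highest start peak of the 10 genes in every library. It stood at 618 and 605 times background in synHPRT1 YAC, 1001 and 1009 in synHPRT1 integrated, 928 and 804 in synHPRT1R YAC, and 1109 and 1057 in synHPRT1R integrated. HTA1, the H2A gene on the other side of the shared region, stood at 56.2 and 31.0 times background in synHPRT1 YAC, 28.4 and 61.0 in synHPRT1 integrated, 25.4 and 17.6 in synHPRT1R YAC, and 35.1 and 36.0 in synHPRT1R integrated. HTB1 was higher than HTA1 in all 8 libraries, and every integrated library was above every YAC library for HTB1, while the contexts overlapped for HTA1.

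At the second H2A-H2B couple, HTB2 was higher than HTA2 in all 8 libraries by tags over background. HTB2 stood at 68.2 and 40.0 times background in synHPRT1 YAC, 75.5 and 115 in synHPRT1 integrated, 62.5 and 44.0 in synHPRT1R YAC, and 135 and 77.9 in synHPRT1R integrated. For HTA2 the values were 26.5 and 20.6 in synHPRT1 YAC, 33.5 and 41.6 in synHPRT1 integrated, 38.4 and 25.8 in synHPRT1R YAC, and 38.3 and 48.9 in synHPRT1R integrated. The H2B gene thus had more summit tags over background than its H2A neighbour at both couples, with a median of 964 against 33.0 at HTB1-HTA1 and of 71.9 against 35.9 at HTB2-HTA2. At HTB2-HTA2 this rests in part on the lower background of the plus lists. Undivided summit tags ran from 1728 to 6873 for HTB2 (median 3461) and from 1607 to 3643 for HTA2 (median 2858). By undivided tags HTA2 was the higher in the first synHPRT1R YAC library (3643 against 3289) and HTB2 in the others.

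Of the H3-H4 couples, HHT2-HHF2 had the higher H4 peak. HHF2 stood at 154 and 175 times background in synHPRT1 YAC, 302 and 341 in synHPRT1 integrated, 190 and 168 in synHPRT1R YAC, and 301 and 278 in synHPRT1R integrated, so that the 4 integrated libraries lay above the 4 YAC libraries. HHT2, its H3 partner, stood at 35.7 and 43.3 in synHPRT1 YAC, 68.4 and 84.6 in synHPRT1 integrated, 53.1 and 61.8 in synHPRT1R YAC, and 64.0 and 59.4 in synHPRT1R integrated. HHF2 exceeded HHT2 in 8 of 8 libraries.

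At HHT1-HHF1 the partners were close by tags over background. HHF1 (H4) stood at 33.1 and 43.4 times background in synHPRT1 YAC, 76.0 and 72.9 in synHPRT1 integrated, 44.5 and 36.7 in synHPRT1R YAC, and 71.2 and 77.5 in synHPRT1R integrated, with no overlap between contexts. HHT1 (H3) stood at 43.0 and 43.6 in synHPRT1 YAC, 36.7 and 76.7 in synHPRT1 integrated, 31.0 and 38.0 in synHPRT1R YAC, and 52.1 and 59.4 in synHPRT1R integrated. HHT1 was the higher of the couple in 4 libraries and HHF1 in the other 4. Other scales separated them. Undivided summit tags ran from 2460 to 6017 for HHF1 and from 1557 to 3588 for HHT1. By percentile within its list, HHF1 was higher in 8 of 8 libraries by summit tags. HHT1 was higher in 8 of 8 by the deposited fold described below.

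HHO1, the linker histone gene, stood at 22.8 and 24.1 times background in synHPRT1 YAC, 32.0 and 17.8 in synHPRT1 integrated, 18.4 and 22.8 in synHPRT1R YAC, and 27.4 and 25.0 in synHPRT1R integrated. The 4 YAC and the 4 integrated libraries overlapped, as did the 4 libraries of each sequence. HTZ1 was low, at 1.51 and 4.65 in synHPRT1 YAC, 2.18 and 2.95 in synHPRT1R YAC, and 2.75 and 3.84 in synHPRT1R integrated. It had no start peak in the synHPRT1 integrated libraries. The values of 1.51 and 2.95 belong to peaks that lay wholly upstream of the coding sequence (−464 to −265 and −378 to −179 bp). In the other libraries that listed HTZ1, the peak taken reached the coding sequence, so the levels compare unlike positions. HTZ1 was thus the weakest of the 10 genes in each library that listed it. Its deposited −log10 q-value was lowest in the first synHPRT1 YAC library (3.79) and highest in the second (119). The lowest in any list was 1.31.

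**Figure D1:**
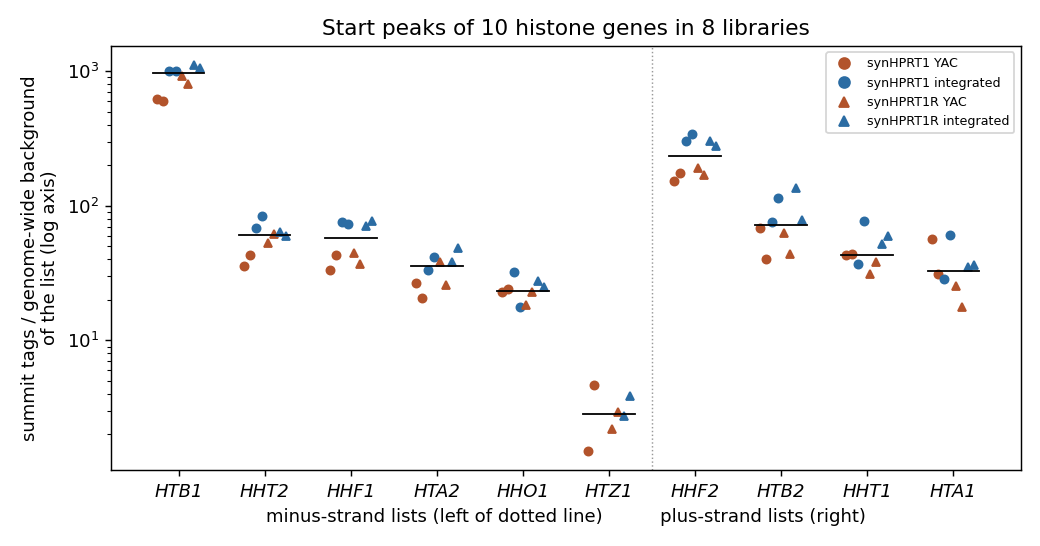
Summit tags of each gene's start peak divided by the genome-wide background of its list (log axis), 1 point per library; colour gives the context, shape the sequence and the horizontal line the median over the libraries with a peak. HTB1 lies between 605 and 1109 times background, HTZ1 between 1.51 and 4.65, and values left and right of the dotted line come from different strand lists.

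Within a strand the order could be read from the same list. On the plus strand the order was HHF2, HTB2, HHT1 and HTA1. HHF2 exceeded HTB2 by 1.67 ± 0.37 on the log2 scale of tags (mean ± SD, n = 8) and in 8 of 8 libraries, whereas HTB2 over HHT1 (0.64 ± 0.49) and HHT1 over HTA1 (0.44 ± 0.43) each held in 7 of 8. On the minus strand HTB1 exceeded HHT2, the next gene, by 3.93 ± 0.22, a 15.3-fold difference seen in 8 of 8 libraries. HHT2 and HHF1 did not differ beyond their spread (0.08 ± 0.34, HHT2 higher in 4 of 8). HHF1 exceeded HTA2 by 0.71 ± 0.35 in 8 of 8 libraries, and HTA2 exceeded HHO1 by 0.50 ± 0.53 in 7 of 8.

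The deposited fold enrichment, which sets the summit against the background near the peak where that is higher than the genome-wide one, ranked the genes differently. In a list of 1334 to 1815 native peaks, HTB1 ranked between 1 and 10 on its strand, with folds of 49.8 to 50.0. That is the top of the scale: no list exceeded 49.9 to 50.0, and folds near this ceiling do not separate strong peaks. HTB2 had folds of 39.1 to 49.5, HHT2 of 35.3 to 49.6, HHF2 of 42.1 to 47.2 and HHT1 of 30.4 to 46.0, all at percentiles of 88.0 or higher among the native peaks of their lists. HTA2 (20.3 to 36.4) and HHO1 (17.6 to 31.6) followed.

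HTA1 and HHF1 ranked lower by fold than by tags. HHF1 had a fold of 7.61 to 11.8, at percentiles of 66.4 to 75.9, but its summit tags put it at percentiles of 89.4 to 94.8. For HTA1 the fold was 7.95 to 18.7, at percentiles of 61.3 to 80.0 by fold and 79.1 to 91.3 by tags. The local background used for HHF1 was 4.34 to 7.46 times the genome-wide one, and that for HTA1 2.19 to 4.27 times.

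Both genes had a stronger peak close by on the same strand in all 8 libraries. Near HHF1 it was the start peak of IPP1, the gene of inorganic pyrophosphatase, with its summit 2198 to 2350 bp away and 3.11 to 5.42 times the tags. Near HTA1 it was that of ADK1, the gene of adenylate kinase, 908 to 975 bp away with 1.66 to 5.23 times the tags. By contrast, HTB1, HTB2 and HHO1 had no other peak on their strand within 5000 bp of the summit in any library. The local background of HTB1 was 12.1 to 22.2 times the genome-wide one. Its summit stood at a near constant ratio to that background, the folds of 49.8 to 50.0 at the ceiling. The local background of HTB1 is therefore not read as signal outside the peak. That of HHF2 was 3.5 to 7.6 times the genome-wide one, with only weak neighbours (up to 0.108 of its tags). How much of a local background came from the peak's own tags was not tested.

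**Figure D2:**
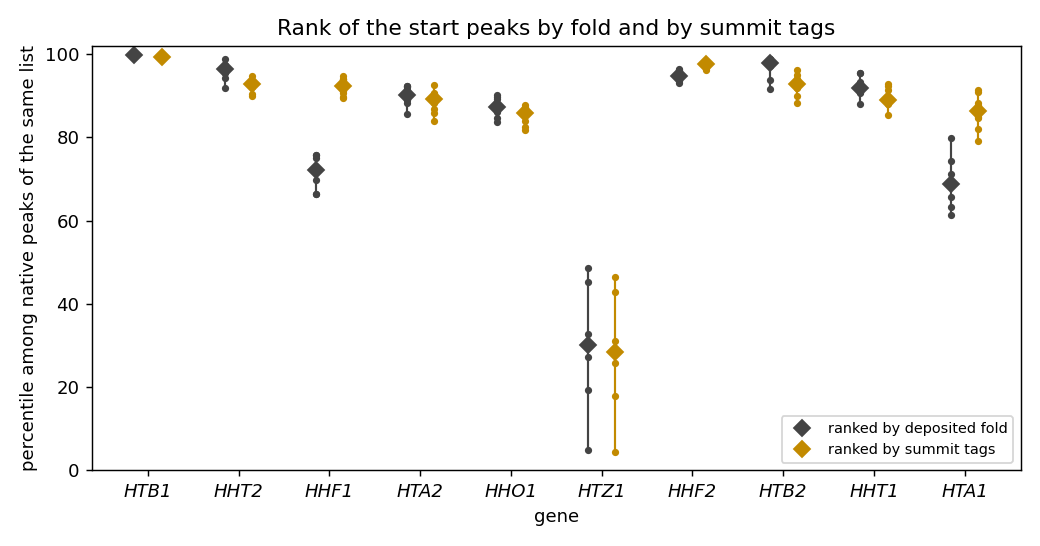
Percentile of each start peak among the native peaks of its own strand list, by deposited fold (grey) and by summit tags (ochre); points are libraries, diamonds medians over libraries and lines the range. HHF1 has a median percentile of 72.2 by fold and 92.5 by tags, and HTA1 of 68.8 and 86.4, while the other genes change less.

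Over the 9 genes detected in every library, the median percentile by fold was 91.9, from 68.8 for HTA1 to 99.9 for HTB1. For all 1239 genes with a start peak in 8 libraries the median was 77.8, with quartiles of 65.6 and 89.2. By tags the median was 92.5 for the 9 genes and 77.7 for the 1239. All 9 genes were above the median of the 1239 by tags and 7 by fold, where HTA1 and HHF1 lay below. HTZ1 had a median percentile of 30.0 by fold over its 6 libraries.

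The 5 genes outside the family whose percentiles of fold came closest to the histone median profile over 8 libraries, by mean absolute difference, were MGE1 (0.811 percentile points), TOM5 (1.04), SBH2 (1.14), QCR6 (1.17) and RPL15A (1.21). MGE1 encodes a nucleotide exchange factor of the mitochondrial Hsp70, TOM5 a subunit of the mitochondrial outer membrane translocase, SBH2 a subunit of an ER translocon, QCR6 a subunit of respiratory complex III, and RPL15A a ribosomal protein. The percentiles of MGE1 lay between 90.5 and 95.3 over the libraries, and the profile itself between 90.6 and 95.5.

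Positions are given from the first base of the coding sequence, negative upstream. The upstream edge of the HHF2 peak lay at −43 bp in 5 of 8 libraries and between −43 and −39 bp in all. That of HHT1 lay at −30 bp in 5 of 8, with a range of −41 to −29. HHF1 spanned −46 to −40 bp and HTA1 −87 to −76 bp. HTB1 had its edge at −104 bp in 6 of 8 libraries. The H2A and H2B peaks thus began farther upstream (medians of −77.5 bp for HTA1, −104 bp for HTB1, −55 bp for HTA2 and −115.5 bp for HTB2) than the H3 and H4 genes (−30 bp for HHT1, −40.5 bp for HHF1, −43 bp for HHT2 and HHF2). The 9 genes' SD of the edge over libraries had a median of 10.0 bp, and that of all 1239 genes 9.63 bp.

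Some edges lay apart in single libraries. HTB1 had its edge at −48 bp in the second synHPRT1R integrated library, where its peak was 223 bp wide against 278 to 282 bp elsewhere. HTA2 extended to −180 bp in the first synHPRT1R YAC library, with a width of 359 bp, and HHO1 to −131 bp in the second synHPRT1R YAC library, with a width of 321 bp. HTB2 varied the most among the genes detected in every library after HTA2, with edges from −134 to −40 bp and an SD of 38.4 bp.

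Widths were short in general, since no list held a peak under 200 bp. HHT1 was 211 to 220 bp wide, HHF1 203 to 218, HHF2 221 to 228 and HHT2 214 to 239. HTB1 and HTB2 had the widest peaks by median, 279 and 298.5 bp. Over the 9 genes the median width was 229.5 bp, and over the 1239 genes 231.5 bp. Summits lay inside the coding sequence, at medians from 29 bp (HTB1) to 78 bp (HHT2) downstream of its first base, and their median over the 9 genes, 66.5 bp, was near that over the 1239 genes, 63 bp. Edges and summits follow from tags piled over at least the minimum width, so neither is a transcription start to the base.

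**Figure D3:**
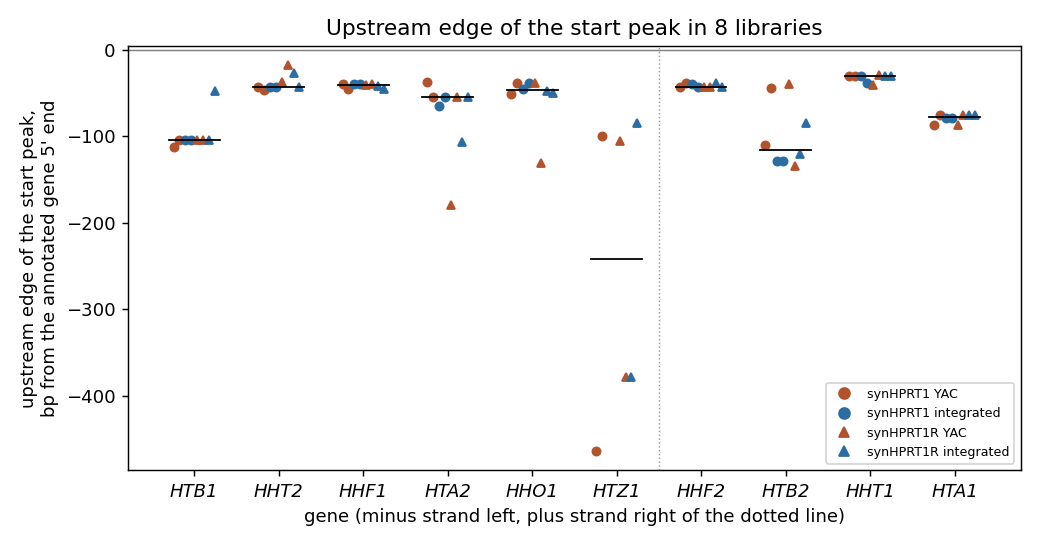
Upstream edge of the start peak in bp from the first base of the coding sequence (0, negative upstream), 1 point per library, with the median as a line; colour gives the context and shape the sequence. Edges of HHT1, HHF1, HHF2 and HTA1 fall within ranges of 12 bp or less, while HTZ1 is scattered from −464 to −85 bp.

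TATA words (TATAAA or TATATA, whose matches can overlap one another) lay within 600 bp upstream of 9 of the 10 genes, all but HHO1, against 79.6% of all genes. The stretch with the match nearest upstream of the median edge is shown for the 8 core genes, on the gene's own strand with the TATA words read on that strand in capitals, because the peak edges lie at different distances from it.
HTB1, chrIV:914828-914887: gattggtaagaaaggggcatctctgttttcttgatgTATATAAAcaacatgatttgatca
HTB2, chrII:236315-236374: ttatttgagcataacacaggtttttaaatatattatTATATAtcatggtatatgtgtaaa
HTA1, chrIV:915320-915379: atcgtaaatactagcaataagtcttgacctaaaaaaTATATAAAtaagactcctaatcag
HTA2, chrII:235962-236021: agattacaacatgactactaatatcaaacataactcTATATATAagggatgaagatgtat
HHT1, chrII:256185-256244: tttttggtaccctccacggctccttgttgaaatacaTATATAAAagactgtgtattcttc
HHT2, chrXIV:576115-576174: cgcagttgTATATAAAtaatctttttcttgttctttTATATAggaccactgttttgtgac
HHF1, chrII:255769-255828: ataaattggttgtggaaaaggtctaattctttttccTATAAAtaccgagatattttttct
HHF2, chrXIV:576561-576620: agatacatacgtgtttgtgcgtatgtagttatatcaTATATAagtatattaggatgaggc
From the last base of that match to the median edge were 20.5 bases at HTB2, 28 at HTB1 and 40 at HHT2. The distance was 62.5 bases at HHF1, 73 at HHT1, 82 at HHF2, 89.5 at HTA1 and 131 at HTA2. Over single libraries the distance ran from 2 to 96 bases at HTB2, 20 to 84 at HTB1, 80 to 91 at HTA1 and 6 to 149 at HTA2, so the order of the medians does not hold in each library. HHT1 also had a TATA match on the opposite strand, at −62 to −57, nearer to its edge than the match shown. HTZ1 had its only TATA match on its own strand at −565 to −560.

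The divergent peaks left wide gaps. The gap between the facing upstream edges was 565 to 578 bp at HHF1-HHT1 (median 573.5), 591 to 616 bp at HHT2-HHF2 (592.5), 619 to 694 bp at HTB1-HTA1 (636.5) and 472 to 601 bp at HTA2-HTB2 (513.5). The other 70 head-to-head pairs detected in all 8 libraries had a median gap of 282.5 bp, with quartiles of 188 and 461.5. Their 5′ ends also lay closer together, at a median of 456 bp against 647 bp (HHF1-HHT1), 677 bp (HHT2-HHF2), 700 bp (HTA2-HTB2) and 818 bp (HTB1-HTA1). The SD of the gap over libraries was 4.57 bp at HHF1-HHT1, 10.0 bp at HHT2-HHF2, 22.6 bp at HTB1-HTA1 and 43.5 bp at HTA2-HTB2. The 70 other pairs had a median SD of 18.7 bp with quartiles of 12.3 and 30.9, so 2 of the 4 couples lay above that median.

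**Figure D4:**
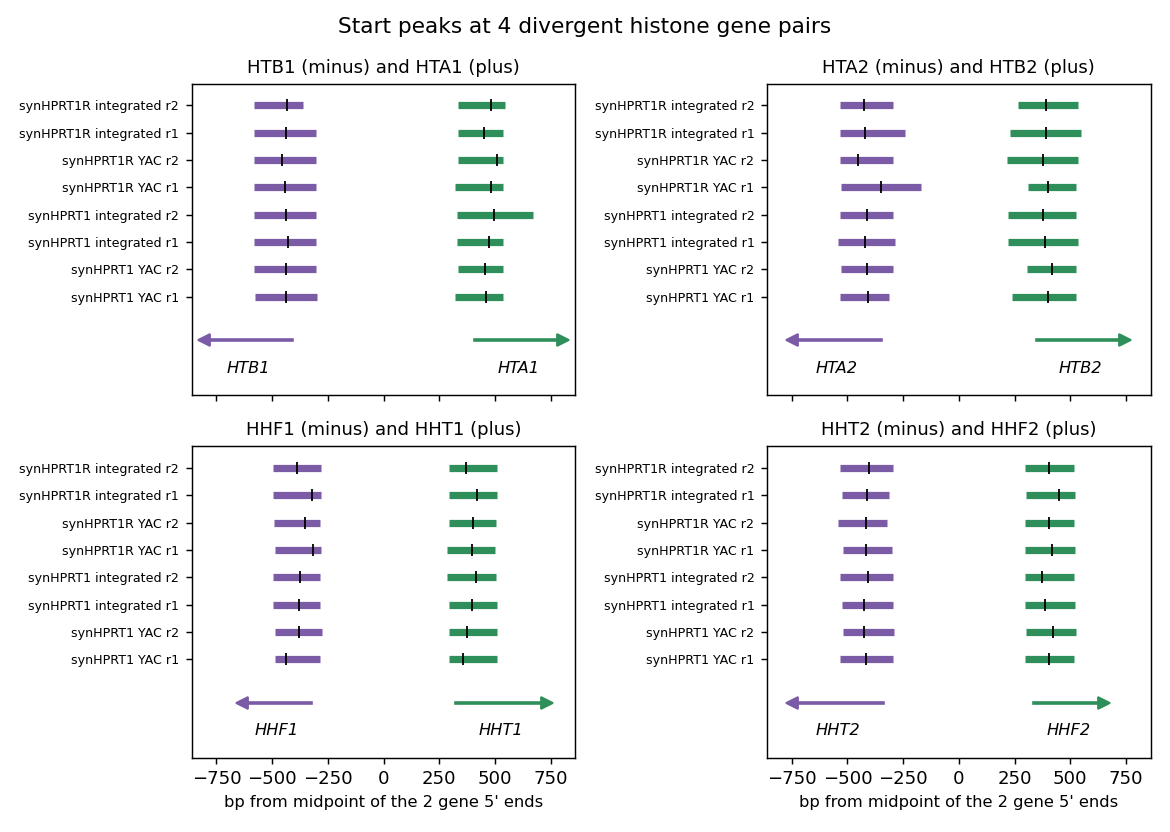
Start peaks of the 4 divergent couples in each library (r1 and r2 are replicates), in bp from the midpoint between the 5′ ends of the genes; bars span the peak, ticks mark the summit and arrows the coding sequences. The bars of each couple leave a gap of 472 to 694 bp and mostly keep their place from library to library, while HTB2 varies throughout and HTA2, HTB1 and HTA1 have single longer or shorter bars.

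Within that gap, a weak plus-strand peak was listed upstream of HHF2 in 5 libraries, both libraries of synHPRT1 YAC and of synHPRT1R YAC and the second of synHPRT1 integrated. It lay between −539 and −291 bp from HHF2's coding sequence and had folds of 1.66 to 4.73. Its 252 to 912 summit tags compare with 6897 to 15937 at the HHF2 start peak over all libraries. No such peak was listed in the gaps of the other couples within 500 bp of a member gene.

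HTZ1 differed from the others in position as well as level. One peak position spanned the coding sequence's first base, with an upstream edge at −100, −106 and −85 bp in the second synHPRT1 YAC, first synHPRT1R YAC and second synHPRT1R integrated libraries. Another lay farther upstream, with its edge at −378 bp in all 4 synHPRT1R libraries and at −464 and −485 bp in the synHPRT1 YAC libraries. In the first synHPRT1R integrated library the positions were joined into a single peak of 464 bp. Peaks on the opposite strand lay over the end of the gene in 3 libraries, with folds of 5.64, 4.47 and 1.81.

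The paralogous copies are alike in sequence, which bears on how reads are placed. Coding sequences were 93.7% identical between HTA1 and HTA2, 87.9% between HTB1 and HTB2, 93.2% between HHT1 and HHT2 and 97.4% between HHF1 and HHF2. Identical runs were measured only in a limited stretch around the start of the coding sequence. There the longest run was 66, 29, 74 and 80 bases in that order. In the part of that stretch upstream of the coding sequence no run exceeded 9 bases. Longer runs farther into the coding sequence or farther upstream were not looked for. The treatment of reads that match both copies is not given here, so the level split between copies is uncertain where peaks reach into the coding sequence, and they did so by 126 to 260 bp in the 8 core genes.

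Start peaks were compared between contexts and between sequences by presence. None of the 10 genes was present in 4 libraries of one side and absent from all 4 of the other, a pattern that 0.1% (YAC alone) and 0.0833% (integrated alone) of all genes had by context, and 0.0666% (synHPRT1 alone) and 0.117% (synHPRT1R alone) by sequence. Over all 6002 genes, Fisher's exact test with Benjamini-Hochberg adjustment called 0 genes (0%) in each comparison, with 11 genes at the smallest p that 4 libraries against 4 allow, 0.0286 unadjusted. HTZ1 was present in 4 of 4 YAC and 2 of 4 integrated libraries, and in 2 of 4 synHPRT1 and 4 of 4 synHPRT1R libraries (Fisher's exact p = 0.429, two-sided, in both; adjusted p = 1).

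Positions were compared with limma over the 1239 genes with a start peak in all 8 libraries, in 1 fit with terms for context and sequence. No histone gene passed for the summit distance by context (0 of 9 against 0% of all genes tested) or by sequence (0 of 9 against 0.0807%), nor for log2 width by context (0 of 9 against 0.0807%) or by sequence (0 of 9 against 0%). The YAC minus integrated difference in summit distance ran from −17.2 bp (HHT1) to 12 bp (HTB2) over the 9 genes, with a median of 5.25 bp beside 0.50 bp over all genes. The largest difference by sequence was at HHF1, whose summit lay 21 bp downstream on average in synHPRT1R and 70.2 bp in synHPRT1, a difference of −49.2 ± 21.7 bp (SE; limma, adjusted p = 0.892). Its summits ranged from −6 to 65 bp in synHPRT1R and from 53 to 116 bp in synHPRT1, so the sequences overlapped, while its upstream edge stayed between −46 and −40 bp. With the upstream edge in place of the summit, 0 of 9 histone genes passed by context (0.404% of all genes did) or by sequence (0.242%).

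For width, the differences between contexts ran from −0.23 (HTB2) to 0.17 (HHO1) on the log2 scale, with a median of −0.01 for the 9 genes beside −0.01 for all genes. HHF1 was 203 to 210 bp wide in YAC and 213 to 218 bp wide in integrated libraries, without overlap, in a direction that 1.45% of all genes shared, and missed the threshold (log2 difference −0.06 ± 0.03 SE, limma). Width moves with the number of tags and the threshold of a list.

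Levels were compared between contexts as values only, since the depth of the libraries is unknown and context cannot be told apart from medium. Every integrated library was above every YAC library for HTB1, HTB2, HHF1 and HHF2, 4 of the 9 genes, where 6.38% of all 1239 genes had such a pattern. These are both H2B copies and both H4 copies. Reads that match both copies may be shared between them, so the 4 genes may not be separate observations. No histone gene had the opposite pattern, against 4.52% of all genes. HHF1 ranged from 33.1 to 44.5 times background in YAC and from 71.2 to 77.5 in integrated libraries. For HHF2 the ranges were 154 to 190 and 278 to 341, for HTB1 605 to 928 and 1001 to 1109, and for HTB2 40.0 to 68.2 and 75.5 to 135.

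Read instead as percentiles of summit tags within a list, HHF1, HHF2, HHT2 and HTB2 lay without overlap and higher in integrated libraries, 4 of 9 against 6.78% of all genes, and 0 of 9 lay higher in YAC libraries, against 3.95%. The limit on copies applies to HHF1 and HHF2 here too. HHF1, HHF2 and HTB2 were thus apart by either scale and also by rank itself, and HTB1 by tags over background alone. HHT2 is not read as apart: its nearest YAC and integrated libraries stood at percentiles of 92.9 and 93.0 in lists of different lengths, and the ranks of the contexts overlapped. Between sequences, 0 of the 9 genes were apart by tags over background in either direction, against 0.807% of all genes higher in synHPRT1R and 1.13% higher in synHPRT1. By percentile the sequences did not overlap for HTB1 (1.37% of all genes were higher in synHPRT1R in this way), but the nearest libraries both had HTB1 at rank 9 in lists of 1359 and 1363 peaks, so no difference is read from it.

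Genes that act on histones were then read for presence. Of 12 regulators of histone genes, 2 were detected in all 8 libraries and 6 in none, beside 20.6% and 33.8% of all genes. Those detected in all 8 were YTA7, which encodes a chromatin-bound ATPase that acts at histone genes, at a median percentile of 72.7 by fold, and SWI6, the shared subunit of SBF and MBF, at 38.9. Over the libraries the percentile ran from 51.8 to 81.0 for YTA7 and from 0.463 to 75.3 for SWI6. SPT10, SWI4, MBP1, HIR3, HPC2 and RTT106 had a start peak in 0 libraries, which shows only that no peak passed the lists' threshold.

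Among 12 histone chaperones, 3 were detected in all 8 libraries (25.0%, beside 20.6% of all genes) and 2 in none (16.7%, beside 33.8%). CHZ1, whose product carries H2A.Z with H2B, had a median fold of 49.0, at a percentile of 98.0. SPT6, the gene of a chaperone that travels with RNA polymerase II, stood at a percentile of 81.4, and POB3, a subunit gene of FACT, at 61.0. That fold is near the ceiling, where strong peaks are not separated.

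Of 15 genes of the complexes that exchange H2A.Z or remodel nucleosomes, 3 were detected in all 8 libraries and 6 in none. These were 20.0% and 40.0% of the list, beside 20.6% and 33.8% of all genes. IES6 and ARP8, subunit genes of INO80, had median percentiles of 83.8 and 81.2, and YAF9, a subunit gene of SWR1 and NuA4, of 57.1. Of 15 histone acetyltransferase and deacetylase genes, 2 were detected in all 8 libraries (13.3%), the deacetylase genes RPD3 (48.2) and HDA1 (44.0), and 8 in none (53.3%). Percentiles over the libraries ran from 6.96 to 73.5 for RPD3 and from 10.4 to 61.4 for HDA1. Of 20 genes of G1/S and S phase, 0 were detected in all 8 libraries and 7 in none. CSE4, the gene of the centromeric H3 variant, had a start peak in 7 libraries, with a median fold of 7.76. No gene of these lists was present in all 4 libraries of one context or sequence and absent from the other 4.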

How the data were processed

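CAGE tags were measured in 8 libraries, 2 in each of 4 groups. The tools named are MACS2 2.1.0, deepTools 3.5.0, SAMtools 1.9, Bowtie2 2.2.9 and bcl2fastq 2.20, with build sacCer3, per the submitters' processing notes. Settings are not given in the sources used here. Peak lists were called by the authors for each library and strand against 2 references, 32 in all. The 16 lists in which the synthetic sequence was a contig of its own were used, and those with it inside chromosome XI were an alternative. Each peak carries the authors' deposited fold (a ratio of summit to background), and the authors' deposited −log10 p-value and −log10 q-value. The lowest deposited −log10 q was 1.31. The deposited score column was not used.

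Summit tags were solved from the fold and p of each peak, assuming a Poisson model. They were whole within 0.1 in 97.7% to 99.5% of cases per list. The background was 41.0 to 52.7 tags in the plus lists and 67.1 to 94.8 in the minus lists. The plus strand was taken from the forward lists. Ranks, percentiles and levels are within 1 list. Where several peaks met the window, the one of highest fold was taken.

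Presence was tested with Fisher's exact test (SciPy 1.17.1), two-sided, with Benjamini-Hochberg adjustment over 6002 genes. Summit distance and log2 width were tested with limma 3.58.1 in R 4.3.3, with adjustment over 1239 genes and a threshold of 0.05. In simulated data with 200 of 1239 genes shifted by 60 bp between contexts, limma called 146 of the 200 and 11 others. The named genes were the 10 histone genes, the 5 genes of nearest percentile profile, CSE4, and, from 5 lists of related genes, the first 4 in list order with a start peak in all 8 libraries. SPT10, SWI4, MBP1, HIR3, HPC2 and RTT106 were named after their values were seen. IPP1 and ADK1 were named as neighbours. Members and lists were chosen with earlier results of these data known. Replicate numbers were not taken to pair libraries. Alternatives changed the window, the threshold, the reference, the ranking, the variance model and the libraries used (1 left out at a time), or added a replicate block. Peak heights were not tested between libraries, because depth is unknown.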

Additional observations from a re-analysis of the deposited data

Results flagged for a closer look

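In sets of 4 libraries of 1 context, 21 of 95 sets of histone gene values held a library whose gap to the nearest other, relative to the range, exceeded Dixon's 95% limit. Chance flags about 1 set in 20, and sets in which 3 libraries share the same or nearly the same base are flagged for gaps of a few bp.

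Widths stood apart for HTA1 in the second synHPRT1 integrated library (340 bp, others 205 to 213), HTB1 in the second synHPRT1R integrated library (223 bp, others 279), HTA2 in the first synHPRT1R YAC library (359 bp, others 219 to 237) and HHO1 in the second synHPRT1R YAC library (321 bp, others 235 to 241). HTZ1 was flagged at 201 bp in the second synHPRT1 YAC library beside others at 200.

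Upstream edges stood apart by more than 15 bp for HTB1 in the second synHPRT1R integrated library (−48 bp, others −104), HTA2 in the first synHPRT1R YAC library (−180 bp, others −55 to −37), HHO1 in the second synHPRT1R YAC library (−131 bp, others −51 to −39) and HHT2 in the first synHPRT1R integrated library (−27 bp, others −43). Smaller gaps were found for HTB1 at −112 bp in the first synHPRT1 YAC library (others −104), HHT1 at −41 bp in the first synHPRT1R YAC library (others −30 to −29) and at −38 bp in the second synHPRT1 integrated library (others −30). The second synHPRT1 YAC library was apart for HHF1 at −46 bp (others −41 to −40) and HHF2 at −39 bp (others −43).

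Summits were apart for HTB2 at 26 bp in the second synHPRT1 integrated library (others 38 to 40) and HHT2 at 87 bp in the second synHPRT1 YAC library (others 78 to 79). Percentiles of fold were apart for HTB1 at 99.3 in the first synHPRT1R YAC library (others 99.9 to 100.0), HTA2 at 89.1 in the first synHPRT1 integrated library (others 92.2 to 92.3) and HHO1 at 83.7 in the second synHPRT1 integrated library (others 89.1 to 90.2). By summit tags HHO1 stood at 81.7 in that library (others 87.1 to 87.7) and HHT1 at 85.3 in the first synHPRT1R YAC library (others 88.7 to 89.0).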

How the results depend on the processing

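The count of 9 genes and 4 couples detected in every library held under other windows (200 bp upstream to 50 bp downstream, 500 bp upstream), a −log10 q of at least 10, the other reference and with each library left out. Requiring the summit inside the window left 5 genes and 0 couples. Presence calls were 0 under every alternative, as the smallest p that the libraries allow could not pass the adjustment for the few genes that reached it, so this count says nothing about stability. limma called 0 genes by context and 1 by sequence for the summit distance, and 1 and 0 for width. With the upstream edge in place of the summit, an alternative added after seeing the data, it called 5 and 3, none of them a histone gene. The 500 bp window gave 1 call for the summit distance and 2 for width by context. The summit rule gave 1 call for width by sequence, and the other reference 0 for width by context. With each library left out, the calls ranged from 0 to 1 for the summit distance by context, 0 to 1 by sequence, 0 to 2 for width by context and 0 to 1 by sequence. The replicate block gave 0 calls for width by context and 1 by sequence, with presence at 0. The difference in summit distance between replicates 1 and 2 was correlated between groups, at −0.22 to 0.11 over 6 pairs of groups. By this measure alone, equal replicate numbers did not go with a shared difference. The cause of these moves was not tested.

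Ranked by −log10 p, the median percentile of the 9 genes was 89.6 instead of 91.9. Of 300 values of single genes (percentile or summit distance) under the alternatives, 14 moved by over 1 SD, all under ranking by −log10 p or by tags. Under ranking by −log10 p 7 of the 10 genes moved, and under ranking by tags also 7 of 10. The percentiles of most genes thus depended on the measure ranked. The start peaks of HTZ1 held 130 to 363 summit tags, and what limits its detection was not tested.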
